A study of Homo sapiens with 12 samples.

Results

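CIRBP and RBM3 are the cold-inducible RNA-binding proteins of mammalian cells, and they are described here with RBMX, RBM4, RBM5 and RBM10, other RNA-binding proteins that share the RNA recognition motif. Members were the probe sets of the array whose annotation gives 1 gene symbol and that symbol is among these 6 genes. This gave 15 probe sets for 5 genes, of 41091 probe sets with 1 symbol for 19775 genes on the array. CIRBP had 5, RBM5 had 4, RBM10 had 3, RBM3 had 2 and RBM4 had 1. RBMX had 0, since its 4 probe sets are annotated to a small nucleolar RNA as well. A further 4 probe sets are annotated to RBM4 together with a readthrough transcript. No value is given for these 8. The genes were singled out because CIRBP signal was lower with the tRNA vector and not with the hairpin vector in these same arrays. CIRBP values between the vectors are therefore a description, and counts of calls that include them are read as no evidence.

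All 12 arrays came from 293T, a human embryonic kidney line that carries the large T antigen of SV40, which binds p53 and RB proteins. Cells were transiently transfected with plasmid and polyethylenimine, collected after 48 hours, and 12 micrograms of total RNA per sample were labelled with biotin. The groups of 4 arrays received an empty vector, a vector that encodes the human tRNA gene chr1.tRNA68-Gly(GCC), or a vector that encodes an artificial hairpin for CU1276, the small RNA that forms when that tRNA is cleaved. The labels call the 4 samples of a group biological replicates and name no separate clones or batches. Promoters of the inserts and transfection rates are not given in the sources used here.

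CIRBP and RBM3 are small proteins with an RNA recognition motif followed by a tail rich in glycine and arginine. Their transcripts accumulate when cells are cooled mildly below body temperature, and CIRBP is also raised by ultraviolet light and hypoxia. CIRBP binds transcripts and affects their stability and translation, while RBM3 is known for supporting protein synthesis in the cold and protecting neurons. RBM4, RBM5 and RBM10 act in the nucleus on splice site choice. RBM5 regulates splicing of apoptosis genes such as FAS, and RBM10, its relative, regulates NUMB.

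The promoters of the cold-inducible pair are shown because both genes are known for induction by cold. These are the 250 bases before the annotated start in the RefSeq table for GRCh38.p14, at chr19:1269082-1269331 on the plus strand for CIRBP and at chrX:48574234-48574483 on the plus strand for RBM3. Capitals mark GC boxes (GGGCGG, or CCGCCC on the other strand), to which SP1 can bind, and CCAAT boxes (CCAAT, or ATTGG on the other strand), to which the factor NF-Y can bind. The first 2 GC boxes of CIRBP overlap by 1 base.
CIRBP: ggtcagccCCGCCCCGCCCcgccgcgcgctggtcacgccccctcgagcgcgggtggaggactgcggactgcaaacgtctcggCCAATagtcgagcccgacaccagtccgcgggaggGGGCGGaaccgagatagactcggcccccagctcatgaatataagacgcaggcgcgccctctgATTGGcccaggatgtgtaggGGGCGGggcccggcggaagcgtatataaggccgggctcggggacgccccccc
RBM3: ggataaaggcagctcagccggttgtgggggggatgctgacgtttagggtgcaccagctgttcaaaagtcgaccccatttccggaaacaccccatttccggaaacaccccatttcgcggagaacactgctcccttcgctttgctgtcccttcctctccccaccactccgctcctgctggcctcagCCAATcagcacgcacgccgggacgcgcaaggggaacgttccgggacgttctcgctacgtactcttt
The CIRBP window held 4 GC boxes and 2 CCAAT boxes and was 71.2% G and C. The RBM3 window held 0 GC boxes and 1 CCAAT box and was 59.6% G and C. Of 35116 windows of the same length, 42.6% held a GC box and 32.0% a CCAAT box, and the median was 58% G and C. The mild cold response element described for the mouse Cirbp gene (TCCCCGCC, or GGCGGGGA on the other strand) was in 0 of the 2 windows and in 7.75% of all windows. The matches describe these letters only, and any link to the signals below was not tested.

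CIRBP signal depended on which of its probe sets was read. The brightest, 200810_s_at, had MAS5 signals (a summary of probe brightness on a linear scale, with no unit) of 4842, 4131, 4549 and 4677 in the empty vector arrays numbered 1 to 4. In the tRNA vector arrays they were 3602, 3026, 3465 and 3676, and in the hairpin vector arrays 4403, 4634, 4718 and 4747. All 4 tRNA vector arrays lay below all 8 others, and the empty and hairpin vector arrays overlapped. The group means were 4549.8 ± 304, 3442 ± 291 and 4625 ± 156 (SD, n = 4). The log2 difference was -0.40 ± 0.080 for the tRNA vector against the empty vector (limma standard error here and below), which is a fold of 0.756. The hairpin vector stood at 0.026 ± 0.080. Between same-numbered arrays the tRNA vector stood at -0.43, -0.45, -0.39 and -0.35. These are the values that led to the choice of the genes, so they are a description and support no difference. Of all 32768 probe sets tested, 125 (0.381%) had every tRNA vector array below every array of both other groups. Fewer cells with a transcript and less of it per cell cannot be told apart in bulk RNA.

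The second CIRBP probe set, 200811_at, which the annotation ties to the same transcript record, had another pattern. Empty vector arrays had 2319.7, 1772, 2216 and 2160.3, tRNA vector arrays 1894, 2056, 2472 and 2332, and hairpin vector arrays 1806, 1926, 2977 and 2488. The 3 groups overlapped, with log2 differences of 0.047 ± 0.15 and 0.097 ± 0.15 against the empty vector. Within an array, the log2 ratio of 200810_s_at to 200811_at was 1.11 ± 0.081 for empty, 0.66 ± 0.19 for tRNA and 1.04 ± 0.30 for hairpin vector arrays (SD, n = 4). With the tRNA vector it ran from 0.49 to 0.93, below every empty vector array (1.04 to 1.22) and overlapping the hairpin vector arrays (0.66 to 1.29). The ratio restates the choice of 200810_s_at and is a description only. Where each lies on the transcript is not given in the sources used here.

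The other 3 CIRBP probe sets also overlapped between all groups. For 228519_x_at, whose suffix marks probes that may match other transcripts, signals ran from 869.8 to 1177 (empty), 805 to 1160.3 (tRNA) and 943 to 1036 (hairpin). For 225191_at they ran from 282 to 397, from 261 to 484 and from 191 to 529.7, and for 230142_s_at from 260.2 to 404, from 237 to 415 and from 253 to 406. With the tRNA vector these 3 stood at log2 differences of -0.059 ± 0.12, 0.22 ± 0.28 and 0.032 ± 0.21. In all, 2 of 5 CIRBP probe sets had a lower mean with the tRNA vector than with the empty vector and 3 a higher one.

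**Figure D1:**
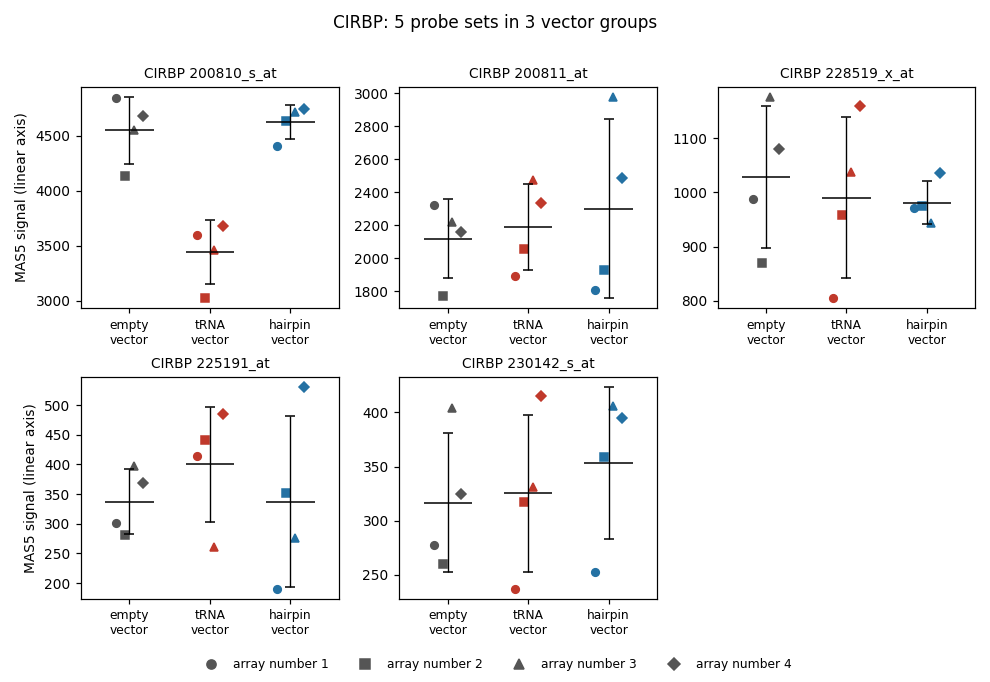
MAS5 signal (linear axes that do not start at 0) of the 5 CIRBP probe sets in 12 arrays by vector group; symbols give the array number, horizontal lines the mean and bars the SD of 4 arrays. For 200810_s_at the tRNA vector arrays (3026 to 3676) lie below the others (4131 to 4842 and 4403 to 4747), and for the other 4 probe sets the groups overlap.

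RBM3, the closest relative of CIRBP among the members, had no such gap. Its brighter probe set, 208319_s_at, had 4114, 3424, 2641 and 3656 in empty vector arrays, 3571, 3246, 3175 and 3199.7 in tRNA vector arrays, and 4311, 3453, 3418 and 3143 in hairpin vector arrays. The groups overlapped, and the highest arrays of the tRNA and hairpin vectors and of the empty vector were those numbered 1. Against the empty vector the log2 difference was -0.052 ± 0.13 (tRNA) and 0.058 ± 0.13 (hairpin). The dimmer probe set, 222026_at, stood at -0.20 ± 0.25 and -0.082 ± 0.25. Both signs of 222026_at turned without empty vector array 1. From lowest to highest mean, 208319_s_at and 222026_at were ordered differently (tRNA, empty, hairpin vector and tRNA, hairpin, empty vector), and neighbours in either order differed by less than their SD.

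RBM5, a splicing factor whose gene lies in a region often lost in lung cancer, had a brightest probe set in which the tRNA vector arrays were low, as in CIRBP. Signals of 201395_at were 5678, 5975, 5699.9 and 5633 (empty), 4833, 4805, 5013 and 5389 (tRNA), and 5992, 5290.2, 5643 and 5762 (hairpin). All 4 tRNA vector arrays lay below all 4 empty vector arrays, and hairpin vector array 2 lay below tRNA vector array 4. The log2 difference was -0.20 ± 0.068 with the tRNA vector, a fold of 0.871. It was -0.020 ± 0.068 for the hairpin vector, and 0.18 ± 0.068 for the hairpin against the tRNA vector. The sign with the tRNA vector was kept under all 20 alternatives, from -0.23 to -0.18. With no overlap between tRNA and empty vector arrays, leaving out a single array could not turn it, so this is no sign of stability. The other RBM5 probe sets did not share the pattern, at 0.045 ± 0.14 for 201394_s_at, 0.21 ± 0.43 for 230742_at and -0.20 ± 0.56 for 209936_at, with overlapping groups.

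RBM4, which acts on splicing and translation, and RBM10 had overlapping groups in every probe set. RBM4 227979_at ran from 668 to 939 (empty), 667 to 1055 (tRNA) and 609 to 967 (hairpin). Its log2 differences against the empty vector were -0.060 ± 0.18 and -0.027 ± 0.18. Across the 12 arrays the highest signal of the 3 RBM10 probe sets was 1.20, 1.26 and 1.32 times the lowest, against 6.74 times for the most variable member, RBM5 209936_at. For the brightest RBM10 probe set, 215089_s_at, signals ran from 3876 to 4542, from 3847 to 4634 and from 4151 to 4476, with log2 differences of -0.011 ± 0.079 and 0.011 ± 0.079. For 208984_x_at and 217221_x_at the tRNA vector stood at -0.031 ± 0.091 and 0.045 ± 0.083 and the hairpin vector at 0.0042 ± 0.091 and -0.052 ± 0.083.

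**Figure D2:**
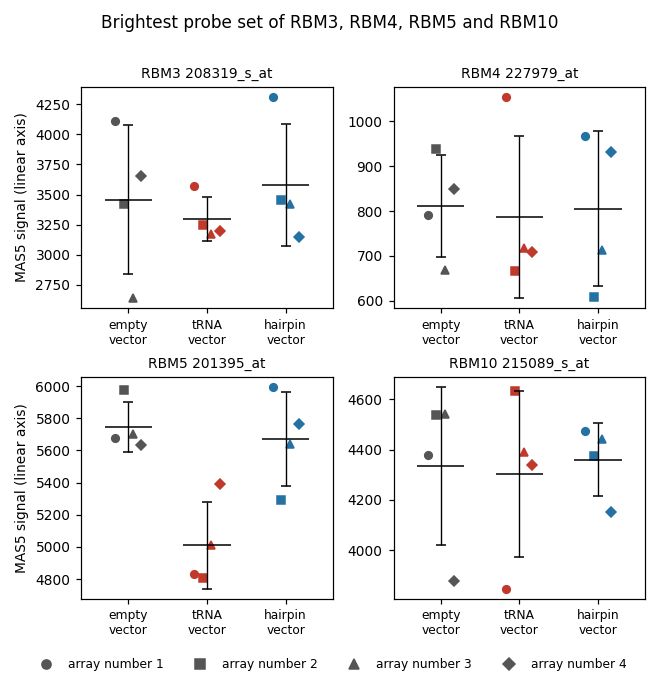
MAS5 signal (linear axes that do not start at 0) of the brightest probe set of RBM3, RBM4, RBM5 and RBM10 by vector group, with symbols for the array number, lines for the mean and bars for the SD of 4 arrays. For RBM5 201395_at the tRNA vector arrays (4805 to 5389) lie below the empty vector arrays (5633 to 5975), and the groups of the others overlap.

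In the model without a block, no member passed the test between vectors. After adjustment over all 32768 probe sets, limma called 0 of 15 member probe sets for the tRNA against the empty vector, as it called 0 (0%) in the whole table, and the same held for the hairpin against the empty vector (0%) and against the tRNA vector (0%). At an unadjusted limma p under 0.05 there were 1238, 867 and 1271 probe sets in the whole table. Among members this held for 2 with the tRNA vector, CIRBP 200810_s_at and RBM5 201395_at, both lower (2.07% of all probe sets were), for 0 with the hairpin vector, and for the same 2 between the vectors, higher with the hairpin (2.30%). Groups did not overlap for these 2 of 15 with the tRNA vector against the empty vector (1.43% lower in all 4 arrays) and for CIRBP 200810_s_at with the hairpin against the tRNA vector (1.46% higher). In the other directions 0 members were counted, where the whole table had 1.71% higher at the unadjusted p and 1.17% higher in all 4 arrays with the tRNA against the empty vector. With the hairpin vector it had 1.43% higher and 1.22% lower at the unadjusted p, and 1.06% lower and 1.06% higher in all 4 arrays. Between the hairpin and the tRNA vector it had 1.58% lower at the unadjusted p and 1.17% lower in all 4 arrays, and 0.189% had the tRNA vector above both other groups. Since the genes were chosen on these contrasts, nothing is read from these counts. The 3 comparisons share their groups, so they are not independent. With the replicate number as a block, limma called 6 probe sets of the whole table between the hairpin and the tRNA vector. CIRBP 200810_s_at was among them, which supports no difference, since the gene was chosen on these contrasts.

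**Figure D3:**
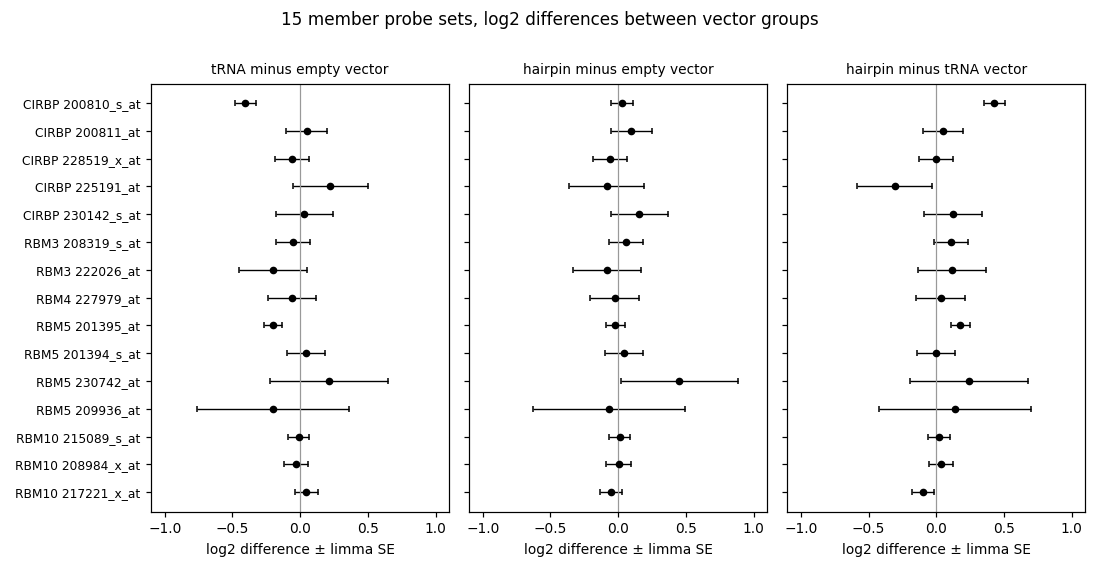
Log2 difference (horizontal axis, with limma standard error as bars) of the 15 member probe sets in 3 comparisons of vector groups, 4 arrays each. CIRBP 200810_s_at stands at -0.40 with the tRNA vector and 0.43 between the vectors, RBM5 201395_at at -0.20 and 0.18, and the dim probe sets have the widest bars.

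Several members differed by array number. The Bacillus control RNAs were at 3 levels, which followed the array numbers 1, 2, and 3 with 4 (mean signals of 1941 to 2062, 371 to 431 and 19.8 to 27.6). Each level holds all 3 vectors equally. A limma term for the 3 levels beside the vectors, chosen after the data were seen, called 7 of 15 member probe sets after adjustment, where it called 20.8% of all probe sets. They were 3 of 4 for RBM5, 2 of 2 for RBM3, 2 of 5 for CIRBP, 0 of 3 for RBM10 and 0 of 1 for RBM4. Probe sets of a gene are not independent of each other. Each p below is for any difference among the 3 levels, and the folds of arrays numbered 1 against the 9 others were not tested on their own.

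RBM5 differed among the levels in 3 probe sets, and their lowest signals were in the arrays numbered 1. Signals of 230742_at there were 119.9 (empty), 187 (tRNA) and 167 (hairpin), against 314 to 547 in the 9 other arrays, a fold of 0.369. The limma adjusted p over the 3 levels was 1.39e-05. For 201394_s_at the 3 arrays ran from 3056 to 3632 against 3996 to 4809, a fold of 0.748, with a limma adjusted p over the levels of 0.00102. For 209936_at they ran from 45.1 to 81.1 against 133 to 304, with a limma adjusted p over the levels of 0.00433. The low signals of 209936_at lie near the filter of 43.3 and the array medians of 75.9 to 104, so they are not shown to be above background and no fold is given. The arrays numbered 1 lay below all others in each of these 3 probe sets. The brightest RBM5 probe set, 201395_at, did not pass this test (limma adjusted p = 0.818), with 4833 to 5992 in the arrays numbered 1 and 4805 to 5975 in the others. The call for 209936_at was lost without hairpin vector array 1 (limma adjusted p = 0.0505).

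RBM3 differed among the levels in both probe sets, with the highest signal of each in the arrays numbered 1. Signals of 222026_at there were 415 (empty), 301 (tRNA) and 317 (hairpin), above the 174 to 255 of all 9 other arrays (a fold of 1.59). The limma adjusted p over the levels was 0.0136, and 0.109 without empty vector array 1. The brighter 208319_s_at ran from 3571 to 4311 there against 2641 to 3656, an overlap of 1 array and a fold of 1.23. Its limma adjusted p over the levels was 0.0379, passing in 8 of 18 alternatives, and up to 0.185 without hairpin vector array 1. CIRBP 230142_s_at ran from 237 to 278 there against 260.2 to 415 (limma adjusted p over the levels = 0.0324, passing in 9 of 18 alternatives). CIRBP 200811_at stood at 2441 ± 294 in the arrays numbered 3 and 4 (SD, n = 6), at 2006 ± 275 in those numbered 1 and at 1918 ± 142 in those numbered 2 (SD, n = 3), with a limma adjusted p over the levels of 0.0351, passing in 8 of 18 alternatives. CIRBP 200810_s_at did not pass this test (limma adjusted p = 0.223). GAPDH probes at the 3' end over those at the 5' end, which reflect RNA integrity, gave a ratio of 1.47 to 1.67 in the arrays numbered 1 and 1.18 to 1.39 in the others, and its part in these differences was not tested. By vector it was 1.33 ± 0.125, 1.36 ± 0.129 and 1.35 ± 0.223 (empty, tRNA and hairpin, SD, n = 4).

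**Figure D4:**
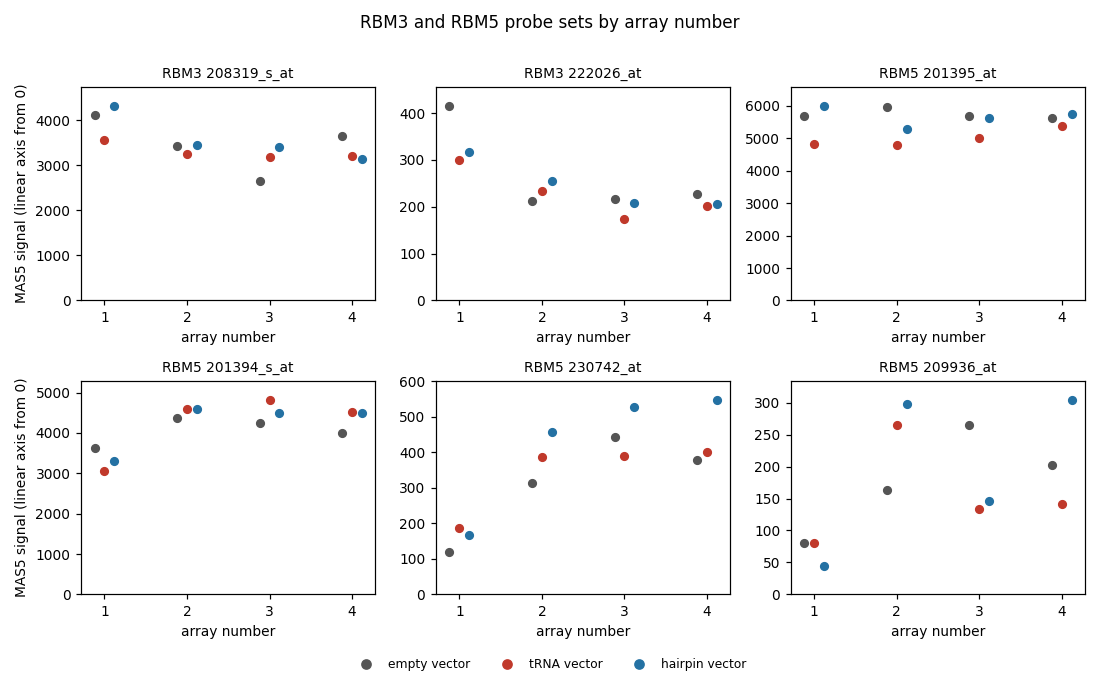
MAS5 signal (linear axes from 0) of the RBM3 and RBM5 probe sets against array number, with 1 point per array coloured by vector. In the arrays numbered 1, RBM5 230742_at (119.9 to 187) lies below the others (314 to 547) and RBM3 222026_at (301 to 415) above them (174 to 255), while RBM5 201395_at has no such gap.

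Related gene lists held 0 genes past the test in either direction in each of the 3 comparisons, as did all genes. Of 34 measured genes among 39 other RBM proteins, 14 were higher and 20 lower with the tRNA vector (median log2 difference -0.038), where over all 13952 genes 7075 were higher and 6877 lower (median 0.0030). With the hairpin vector 20 were higher and 14 lower (median 0.052, against 0.0042 over all genes). The largest moderated t in this list with the tRNA vector was that of RBM12B (539 ± 42.0 with the empty vector and 425 ± 24.3 with the tRNA vector, log2 difference -0.34 ± 0.12), followed by RBM11, a tissue-restricted splicing regulator (-0.33 ± 0.19).

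Genes that regulate, modify or partner CIRBP and RBM3 were split, with 10 of 21 measured genes (of 23 listed) higher and 11 lower with the tRNA vector (median -0.013). CLK4, a kinase of splicing factors, stood at -0.20 ± 0.10 and PTBP1, a splicing repressor, at 0.12 ± 0.072. Of 13 measured transcripts (of 14) that CIRBP or RBM3 are reported to bind or regulate, 9 were higher and 4 lower (median 0.036). VEGFA, the growth factor of blood vessels, had signals of 2448 ± 199.7, 1912 ± 172 and 2567 ± 199.8 in the empty, tRNA and hairpin vector groups (SD, n = 4), with a log2 difference of -0.36 ± 0.095 for the tRNA vector. TERT, the catalytic subunit of telomerase, was dim, at 125 ± 38.4 and 156 ± 24.3 (0.37 ± 0.27). VEGFA and TERT were named for the largest absolute moderated t of this list with the tRNA vector, and neither passed the test.

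Cold shock domain proteins, which share the name but not the fold of CIRBP, had 4 measured genes of 8. With the tRNA vector 3 were higher and 1 lower (median 0.065), with CARHSP1 at 0.25 ± 0.19 and YBX1, an abundant mRNA-packaging protein, at 0.085 ± 0.10. Heat-inducible chaperones, which respond to temperature in the opposite direction, had 5 higher and 4 lower of 9 measured genes of 12 (median 0.044), with HSPE1, a mitochondrial cochaperone, at 0.24 ± 0.092 and HSPH1 at -0.10 ± 0.083. With the hairpin vector 1 was higher and 8 lower (median -0.049), where over all genes 7150 were higher and 6802 lower (median 0.0042). Of 16 measured clock genes (of 19) 6 were higher and 10 lower with the tRNA vector (median -0.036). CRY2 (0.88 ± 0.39) and PER3 (-0.97 ± 0.47), repressors of the clock, were dim, at 121 ± 49.3 and 115 ± 21.7 with the empty vector.

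The genes whose brightest probe set was most like CIRBP 200810_s_at across the 12 arrays, by Pearson's r of log2 signal over 13951 other genes, were RYBP, a Polycomb component (r = 0.93), BTBD1 (0.93), COPS9, a signalosome subunit (0.92), KCNT2, a potassium channel (0.92), and VEGFA (0.89). Their log2 differences with the tRNA vector were -0.35 ± 0.085, -0.22 ± 0.069, -0.33 ± 0.083, -0.27 ± 0.096 and -0.36 ± 0.095. These genes, VEGFA included, were picked for following 200810_s_at, so lower values with the tRNA vector follow from the pick. For RBM3 208319_s_at they were MTRF1L, of mitochondrial translation (r = 0.95), CSGALNACT2, of chondroitin synthesis (0.95), MARCHF8, a ubiquitin ligase (0.92), MAU2, a cohesin loader (0.91), and BRIX1, of ribosome biogenesis (0.91). CIRBP and RBM3 correlated at r = 0.22 over the 12 arrays. These are descriptions over arrays that share groups, numbers and scaling, with no test.

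The cells had signal for 5 of 6 neural and renal genes known in 293 cells, past the filter on dim probe sets (a geometric mean of 43.3), with LHX1 below it. Their summed signal was 8139 to 9446, 8567 to 9895 and 8363 to 9732 with the empty, tRNA and hairpin vectors. Sums over B cell markers were 119.7 to 287 and over T cell and myeloid markers 106 to 335 across all arrays. Erythroid markers summed to 50.0 to 213, epithelial ones to 22.8 to 213 and fibroblast ones to 683 to 1271. Of the markers with a 1-symbol probe set on the array, 2 of 3 for B cells, 1 of 4 for T cells and myeloid cells, 3 of 4 for fibroblasts, 1 of 2 for erythroid cells and 0 of 3 for epithelial cells passed the filter. Median array signals lay between 75.9 and 104.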

How the data were processed

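The authors deposited 1 signal intensity per probe set and array, linear and made with MAS5. MAS5 is named in the submitters' processing notes, with no version, and genome build and annotation version are not given in the sources used here. Every array had a trimmed mean (2% off each end) of 500.1. Here log2 was taken without an offset. The 62 control probe sets and those dimmer on average than the 40th percentile (a signal of 43.3) were dropped, leaving 32768; all 15 member probe sets passed. A model of 3 group means over 12 arrays was fitted with limma 3.58.1 in R 4.3.3 (lmFit, eBayes with an intensity trend). Two-sided p-values got the Benjamini-Hochberg adjustment across all 32768, with 0.05 as threshold. The script was tested on simulated data with independent noise, no control RNA levels and shifts larger than any member difference between vectors. That run does not show how it performs on differences of the size seen here. Gene symbols came from the array annotation, brought up to date by Entrez identifier with the RefSeq table for GRCh38.p14, which also gave the promoters. A gene that is no member is its brightest tested probe set with 1 symbol.

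Members, lists and tests were chosen with earlier results of these data known. Named genes were all member probe sets, the 2 of each list with the largest moderated t with the tRNA vector, and the 5 most like CIRBP and RBM3. List memberships rest on general knowledge. Same-numbered arrays deviated together between hairpin and tRNA vector (r = 0.11 to 0.36 across probe sets, against -0.21 to 0.10 for other pairs). There 8 of 8 arrays correlated best with their own number. Between hairpin and empty vector same-numbered pairs stood at 0.11 to 0.33 and other pairs reached 0.15. With 6 of 8 arrays best with their own number, pairing by single number was not shown there. The arrays that were not, empty vector array 3 and hairpin vector array 4, correlated best with each other. Arrays numbered 3 and 4 share a control RNA level, so every array was best with an array of its own level. The labels give the numbers and no shared origin. P values measure the spread between samples that the labels call biological replicates. In the model without a block, that spread also holds the differences between control RNA levels. The number of arrays limits the precision. RBMX and its promoter are not reported here.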

Additional observations from a re-analysis of the deposited data

Results flagged for a closer look

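In groups of 4 arrays, 6 of 45 sets of member values had 1 array far from the other 3 (a gap, as a share of the range, past Dixon's 95% critical value), where chance flags about 1 in 20. In each of the 6 the array was numbered 1. The 45 sets share arrays, and several probe sets belong to the same gene, so they are not independent. RBM5 230742_at and 201394_s_at and RBM3 222026_at also differed among the control RNA levels above, so their flags restate that difference. RBM5 230742_at had a signal of 187.3 in tRNA vector array 1 against 386.6 to 402.1 in the others, and of 167.3 in hairpin vector array 1 against 457.7 to 546.7. RBM5 201394_s_at had 3056 in tRNA vector array 1 against 4524 to 4809, and 3315 in hairpin vector array 1 against 4485 to 4581. RBM3 222026_at had 414.8 in empty vector array 1 against 212.8 to 227.7. RBM4 227979_at had 1055 in tRNA vector array 1 against 667.1 to 716.7.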

How the results depend on the processing

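Between vectors, limma called 0 probe sets in each comparison, also with quantile normalization, no filter, a filter at the 60th percentile, an offset of 16, no intensity trend, only the 8 arrays compared, and without each single array (0 to 0). With the replicate block it called 6 between the vectors and 0 with either vector against the empty one. With the control RNA level as a block it called 4 for the tRNA vector, 3 for the hairpin vector and 8 between them. The only member called in any of these settings was CIRBP 200810_s_at, between the hairpin and the tRNA vector with either block. CIRBP was chosen on these contrasts, so its call supports no difference. Between the tRNA and empty vectors 5 of 8 arrays correlated best with their own number (r = 0.099 to 0.28 for same-numbered pairs). Between the hairpin and empty vectors 6 of 8 arrays did. The arrays that did not were numbered 3 or 4 and correlated best with the other of these numbers. Arrays numbered 3 and 4 share a control RNA level. Pairing by single number was therefore not shown there, while every array correlated best with an array of its own control RNA level. The term for control RNA levels called 6800 probe sets, 4052 with no intensity trend, and 4519 (without hairpin vector array 1) to 6897 when single arrays were left out; these settings were added after the data were seen. RBM5 201394_s_at and 230742_at passed it in all 18 settings.

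Of 45 member differences, 34 changed sign in at least 1 of 20 settings and 11 in none. Every turn came from leaving out a single array. The settings for filter, intensity trend, arrays compared and blocks leave the difference itself unchanged, so they could turn no sign. The 11 include CIRBP 200810_s_at and RBM5 201395_at with the tRNA vector and between the vectors. With the tRNA vector CIRBP 200810_s_at ran from -0.45 to -0.34. For CIRBP the choice of the gene fixes the direction, so this is no sign of stability. Nor is it one for RBM5 201395_at, whose tRNA and empty vector arrays did not overlap, so no single array left out could turn that sign. Dim probe sets such as RBM5 209936_at, with a standard error of 0.56, limit what can be seen.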
